A study of Obba rivulosa with 6 samples.

Results

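The late shift of the wood-decaying fungus Obba rivulosa on spruce was measured by comparing 2 libraries made after 8 weeks of growth with 2 made after 4 weeks. These 4 libraries were chosen by their labelled time alone, out of 6 in the series, and the other 2 came from week 2. All cultures were of the monokaryotic strain 3 A-2, for which the labels name FBCC1032 as the dikaryotic strain, and all stood still in the dark on Norway spruce (Picea abies) wood sticks over water agar. The inoculum was homogenized mycelium, grown beforehand in a liquid low-nitrogen medium with asparagine, succinate and a little glycerol. Weeks 4 and 8 thus shared strain, wood, medium and inoculum and differed in time on the wood. The series set out to learn how the demands of the fungus change during long growth on its natural substrate. One monokaryon was studied, and the labels leave unsaid whether the 2 libraries of a week came from separate cultures, so p-values measure the spread between these libraries, which may be technical.

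Obba rivulosa is a white-rot basidiomycete. White-rot fungi break down lignin with secreted oxidative enzymes such as peroxidases and laccases, and cellulose and hemicelluloses with glycoside hydrolases and oxidative polysaccharide-cleaving enzymes, and take up the released sugars. As wood decays, easily reached carbon and nitrogen become scarcer, and mycelium of different ages comes to lie side by side in one stick. The deposited tables name each gene model by a JGI identifier that begins with jgi|Obbri1 and goes on with a protein ID and the name of the gene prediction. The files give no products for these identifiers, so models are called here by their protein ID, with no function attached.

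Each table gave, per gene model, an expected count (the reads assigned to the model, which may be split between similar models) and the authors' FPKM, a level scaled for model length and for the total of reads. A model missing from a table was taken as 0. The 4 libraries held 4974674 and 4908235 expected counts at week 4, and 5078009 and 5154075 at week 8, and 12424 models were listed in at least 1 library of the series. Of these, 10889 were abundant enough to test, and they held at least 99.89% of the counts of each library. The libraries of a week were not copies of each other, since chi-square over its degrees of freedom was 24.8 (week 4) and 12.1 (week 8), and each was counted as a sample. That value bears on counting noise alone and does not show whether the cultures were separate. Across the tested models Pearson's r of log2 scaled counts was 0.975 within week 4 and 0.985 within week 8, and from 0.884 to 0.925 between a library of week 4 and one of week 8. Genes are the points of these correlations and are no independent replicates. In whole tissue, fewer active hyphae and less RNA of one kind per hypha cannot be told apart.

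Between weeks 4 and 8 a large share of the tested models changed, and with TMM scaling, which equalizes libraries by the bulk of their models, more fell than rose. By edgeR's quasi-likelihood test at a Benjamini-Hochberg adjusted p below 0.05, 38% of the tested models were called changed, with 18% higher at week 8 (1958 models) and 20% lower (2176 models). Falls outnumbered rises at each bound up to 16-fold, and at 32-fold the models were too few to compare. At least 4-fold, 150 models rose and 263 fell, at least 16-fold, 21 rose and 24 fell, and at least 32-fold, 7 rose and 5 fell. The median size of a called change was 0.83 on the log2 scale for the risen models and -1.04 for the fallen ones. A further 1762 models (16.2%) had a 95% interval of their fold change within 1.5-fold in either direction, and none of these was called. The other 4993 models (45.9%) were neither called nor shown to lie within that bound. The scaled counts of the 2 weeks did not overlap for 69.3% of the tested models, and this held for all 4134 called ones. It also held for 3416 models that were not called. With 2 libraries against 2, a lack of overlap is common without any change.

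The balance of rises and falls rested on the scaling, and the number of calls on the libraries in the fit. With TMM the median log2 fold change of all tested models was 0.01. With total counts only it was 0.31, and 3642 models were then called higher and 1351 lower. Upper quartile scaling also turned the balance, with 2343 higher and 1923 lower, and size factors (RLE) kept it, with 1822 and 2313. FPKM carry the total scaling, and the median log2 ratio of FPKM over all tested models was 0.31, above the 0.01 of the fold changes given here. With only the 4 libraries of weeks 4 and 8 in the fit, 3241 models were called, with 1481 higher and 1760 lower. Without week 8 replicate 2 the count of changed models was 1743, with 741 higher and 1002 lower.

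**Figure D1:**
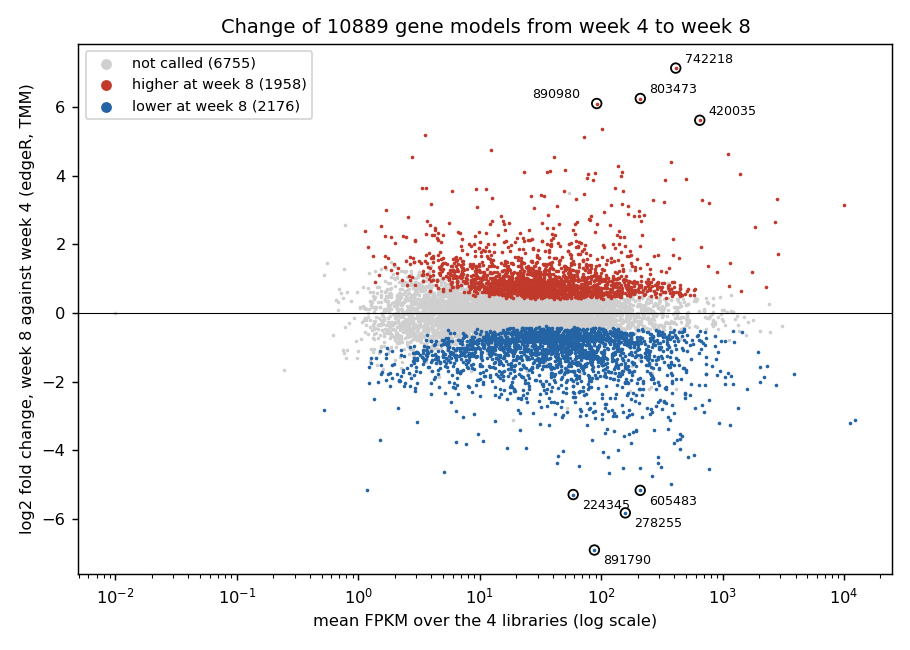
Log2 fold change from week 4 to week 8 (edgeR with TMM scaling, vertical axis) against the mean FPKM of the 4 libraries (horizontal log axis) for the 10889 tested gene models. Red points are the 1958 models higher at week 8, blue points the 2176 lower ones and grey points those not called; the 4 steepest rises and falls by the naming rule are ringed and carry their protein ID.

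The 12 steepest rises started from mean week 4 levels of 0.72 to 70.5 FPKM. The candidates for rises and falls were 3601 called models that reached a mean of 10 FPKM in the higher week and whose libraries did not overlap between weeks. Log2 fold changes of the 12 steepest rises ran from 4.17 to 7.13, and their mean levels at week 8 from 24.2 to 2170 FPKM. Gene model 742218 (e_gw1.382.21.1) stood at 3.65 and 5.80 FPKM in the week 4 libraries and at 616 and 1022 FPKM in those of week 8. It rose from rank 9606.5 to rank 71 among all models, a change of 7.13 on the log2 scale with an SE of 0.38 (edgeR, adjusted p = 5.18e-06). Both week 8 libraries lay far above both of week 4, and both week 2 libraries, at 149 and 107 FPKM, lay between them.

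Model 803473 (fgenesh1_pg.56_#_25), a short model of 504 bases, was at 3.35 and 5.51 FPKM at week 4 and at 409.5 and 423 FPKM at week 8. It changed by 6.24 on the log2 scale with an SE of 0.24 (edgeR, adjusted p = 1.48e-06), with 8 and 13 counts behind the week 4 values. The week 8 libraries nearly coincided, so this rise was among the best replicated. Model 890980 (estExt_Genemark1.C_2230009) had 5 and 16 counts at week 4 (1.01 and 3.28 FPKM) and 966 and 886 at week 8 (191 and 173 FPKM). That was a change of 6.10 on the log2 scale with an SE of 0.33 (edgeR, adjusted p = 4.65e-06).

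Other steep rises started equally low. Model 799424 went from 2.32 and 5.59 to 193 and 205 FPKM, and model 819590 from 2.85 and 3.73 to 144 and 138 FPKM. Model 837722 went from 3.88 and 4.79 to 98.5 and 93.2 FPKM, and model 759509 from 2.14 and 3.31 to 98.7 and 58.7 FPKM. In each of these 4 models every week 8 library exceeded every week 4 library more than 10-fold, and week 2 was as low as week 4 or nearly so, at 1.01 to 6.22 FPKM.

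Models with larger gaps between the libraries of a week need more care. Model 270645 (CE270468_2354) was at 23.0 and 117.9 FPKM at week 4 and at 2058 and 2283 FPKM at week 8, where it ranked at number 14. It changed by 4.62 on the log2 scale with an SE of 0.80 (edgeR, adjusted p = 0.00742), and its week 4 libraries differed about 5-fold. Model 839622 went from 31.0 and 25.1 to 496 and 955 FPKM. Model 784290 went from 12.4 and 10.03 to 134 and 399 FPKM, and it shares reads with other models (a fractional expected count in at least 1 library), so its level is uncertain. The same holds for model 420035 (CE419858_521), at 11.7 and 30.4 FPKM at week 4 and 1051 and 1506 FPKM at week 8. It had been at 615 and 478 FPKM at week 2, so week 4 was its low point.

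One model met a strict pair of bounds for being switched on, with at least 10 FPKM in both libraries of week 8 and under 1 FPKM in both of week 4. Model 282667 (CE282490_8241) was at 0.59 and 0.84 FPKM at week 4, from 5 and 7 counts, and at 14.99 and 33.5 FPKM at week 8, from 129 and 293 counts. It changed by 4.76 on the log2 scale with an SE of 0.50 (edgeR, adjusted p = 0.000191). The week 8 libraries differed by more than 2-fold between themselves, which is small beside the change. By the same bounds no model was switched off. With a single bound of 10 FPKM, 416 models were above it in both week 8 libraries and below it in both of week 4, against 137 the other way round. This split uses FPKM and so carries the total scaling.

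**Figure D2:**
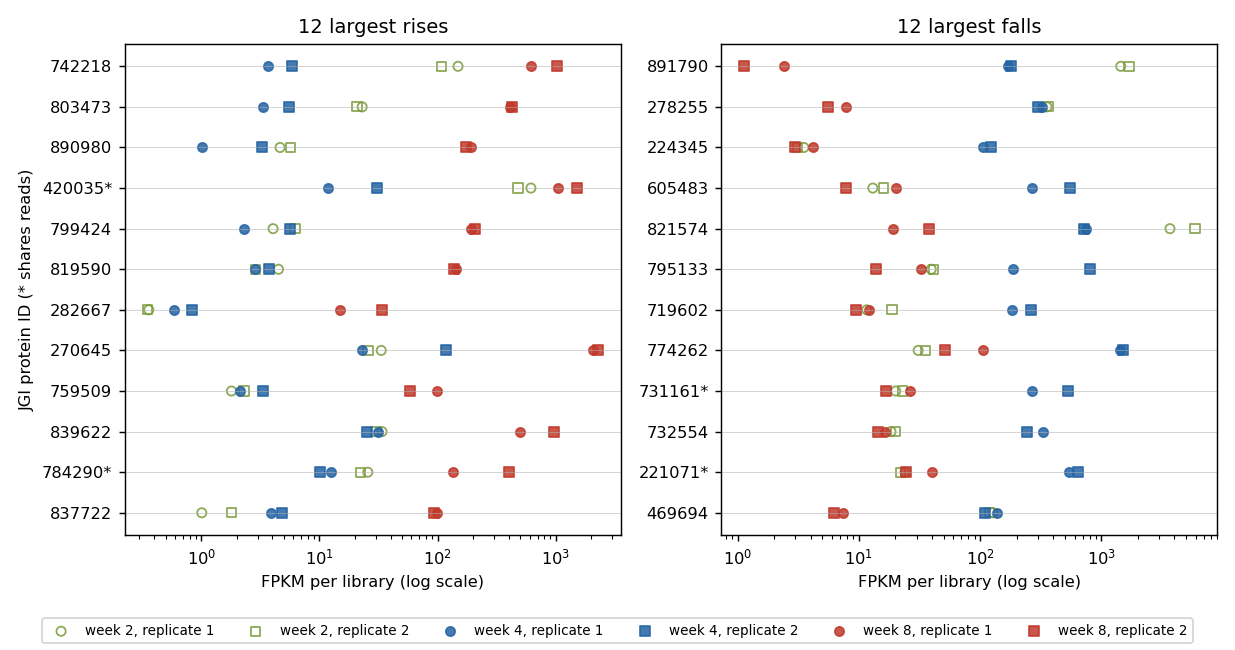
FPKM in each of the 6 libraries (log axis) for the 12 models that rose most (left) and the 12 that fell most (right) from week 4 to week 8, steepest at the top. In every row both week 8 libraries (red) lie on one side of both week 4 libraries (blue); week 2 (open green) is shown for comparison, and an asterisk marks a model that shares reads.

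The 12 steepest falls ran from a log2 fold change of -4.47 to -6.90. The steepest was model 891790 (estExt_Genemark1.C_3120005), at 169 and 179.5 FPKM at week 4 and at 2.42 and 1.13 FPKM at week 8. It changed by -6.90 on the log2 scale with an SE of 0.34 (edgeR, adjusted p = 2.21e-06), and the week 8 values rest on 19 and 9 counts. It had already been falling, from 1444 and 1686 FPKM at week 2. Model 821574 (estExt_fgenesh1_pm.C_2350010) took a like course, falling from 3676 and 5901 FPKM at week 2 to 746 and 713 FPKM by week 4, then to 19.2 and 37.7 FPKM.

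A pair of models held their week 2 level at week 4 and then lost it. Model 278255 (CE278078_466) was at 321 and 299 FPKM at week 4 and at 7.81 and 5.59 FPKM at week 8, a change of -5.82 on the log2 scale with an SE of 0.23 (edgeR, adjusted p = 1.48e-06). Model 469694 (CE469517_108) was at 138 and 110.2 FPKM at week 4 and at 7.46 and 6.22 FPKM at week 8, a change of -4.47 on the log2 scale with an SE of 0.19 (edgeR, adjusted p = 1.48e-06). In both, the libraries of each week were close together, and week 2 lay within or near the range of week 4, at 355 and 367 FPKM for the former and 127 and 119 FPKM for the latter.

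The other 8 of the 12 were high at week 4 alone. The most abundant of them, model 774262 (estExt_Genewise1Plus.C_460005), was at 1435 and 1517 FPKM at week 4, where it ranked at number 29. It stood at 105 and 51.5 FPKM at week 8, a change of -4.54 on the log2 scale with an SE of 0.34 (edgeR, adjusted p = 2.3e-05), and at 30.8 and 35.3 FPKM at week 2. Model 224345 (CE224168_303) was at 105 and 124 FPKM at week 4, at 4.20 and 2.95 at week 8 and at 3.52 and 3.13 at week 2. For this model the first and last weeks nearly coincided.

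The rest of these week 4 models behaved alike in direction but not in spread. Model 732554 fell from 328 and 245 to 16.3 and 14.4 FPKM, and model 719602 from 183 and 263 to 12.2 and 9.43 FPKM. Models 221071 and 731161 fell from 541 and 637 to 40.3 and 24.3 FPKM, and from 266 and 531 to 26.3 and 16.8 FPKM, and both share reads. Model 605483 fell from 266 and 547 to 20.2 and 7.84 FPKM. The least certain was model 795133, at 186 and 809 FPKM at week 4 and 32.6 and 13.8 FPKM at week 8. It changed by -4.75 on the log2 scale with an SE of 0.89 (edgeR, adjusted p = 0.0113), and its adjusted p was 0.0632 with only the 4 libraries of weeks 4 and 8 in the fit and 0.0866 with the replicate number as a block. Leaving out 1 library ended the call for this model in 3 cases, with an adjusted p of 0.0784 and 0.0779 without week 2 replicates 1 and 2 and 0.0502 without week 8 replicate 2.

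A fold change does not show where the reads went, so the largest gains and losses in reads were also described. Summed over tested models, gains came to 25.2% of the reads and losses to 25.3%, from the means of each week. The 6 largest gains made up 9.41% of all gains and the 6 largest losses 11.05% of all losses. By shares of total counts, losses were the more concentrated: 50% of the lost reads came from 128 models, and 50% of the gained reads went to 449. With that scaling 7240 tested models gained and 3649 lost, so gains had more models to spread over. Concentration with TMM scaling was not measured. These sums use shares of total counts, so a loss in one model is a gain in others by construction.

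The largest gain was that of model 837109 (gm1.7089_g), a very short model of 339 bases. It stood at 1895 and 1530 FPKM at week 4 and at 15464 and 21360 FPKM at week 8. By mean FPKM it was then the highest of all models, but by reads another model led in week 8 replicate 1. In CPM, its count relative to the library total with no scaling for length, it went from 533 ± 80.5 to 5731 ± 1302 (SD, n = 2), a change of 3.13 on the log2 scale with an SE of 0.24 (edgeR, adjusted p = 2.14e-05). Second in level at week 8 came model 837108 (gm1.7088_g), of 324 bases and with the adjoining number in its name, which went from 453 and 396 to 4322 and 6071 FPKM. The level of the former was 3.52 to 4.63 times that of the latter in all 6 libraries. Neither had a fractional count.

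The other large gains were spread over longer models. Model 796079 went from 706 and 545 to 4017 and 5616 FPKM, and model 863189 from 534 and 397 to 2790 and 3718 FPKM. Model 116917 went from 136 and 118 to 1234 and 1601 FPKM. Model 790221 went from 153 and 110.2 to 1648 and 3650 FPKM, the widest week 8 gap among the 6. Model 270645, described above, was the third largest gain, from 146 ± 139 to 4514 ± 334 CPM (SD, n = 2). Model 890905 went from 1088 and 1160 to 3875 and 5259 FPKM. With models 837109, 837108, 796079 and 863189 it made up the 5 highest at week 8 by mean FPKM. By reads the order differed: model 837108 was at 1537 CPM at week 8, below model 270645. At week 4 these 5 had ranked between 21 and 240 by mean FPKM.

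Among the losses were the most abundant models of week 4 by mean FPKM. Model 806721 (fgenesh1_pg.183_#_16), of 350 bases, went from 23595 and 20013 to 4137 and 2005 FPKM, and model 835568 (gm1.5548_g), of 279 bases, from 21490 and 18302 to 3568 and 1708 FPKM. Both have fractional counts, and the files do not say with which models their reads are shared. In each library of weeks 4 and 8 the fractional parts of their 2 counts complement each other to a whole number. At week 8 the counts were 6771.05 and 3333.97 for model 806721, and 4518.95 and 2198.03 for model 835568. The 2 may thus share reads with each other, so both levels are uncertain and the 2 losses may not be separate observations. The level of model 806721 was 1.09 to 1.17 times that of model 835568 in every library. Model 806721 showed a change of -3.12 on the log2 scale with an SE of 0.35 (edgeR, adjusted p = 0.000158) and still ranked at number 6 at week 8. Both had been at 9566 to 11619 FPKM at week 2.

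Model 658935 (CE658758_8524) held the most reads of any named model at week 4, with 8924 ± 1815 CPM against 3158 ± 1289 CPM later (SD, n = 2). It changed by -1.78 on the log2 scale with an SE of 0.31 (edgeR, adjusted p = 0.00208). Model 793336 fell from 4153 and 4345 to 1180 and 1265 FPKM, with the smallest gaps within weeks among the 6 losses. Models 779101 and 790619, which share reads, fell from 3787 and 2723 to 1453 and 739 FPKM, and from 2381 and 1397 to 586 and 517 FPKM. The last of these had been higher still at week 2, at 4327 and 4297 FPKM.

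**Figure D3:**
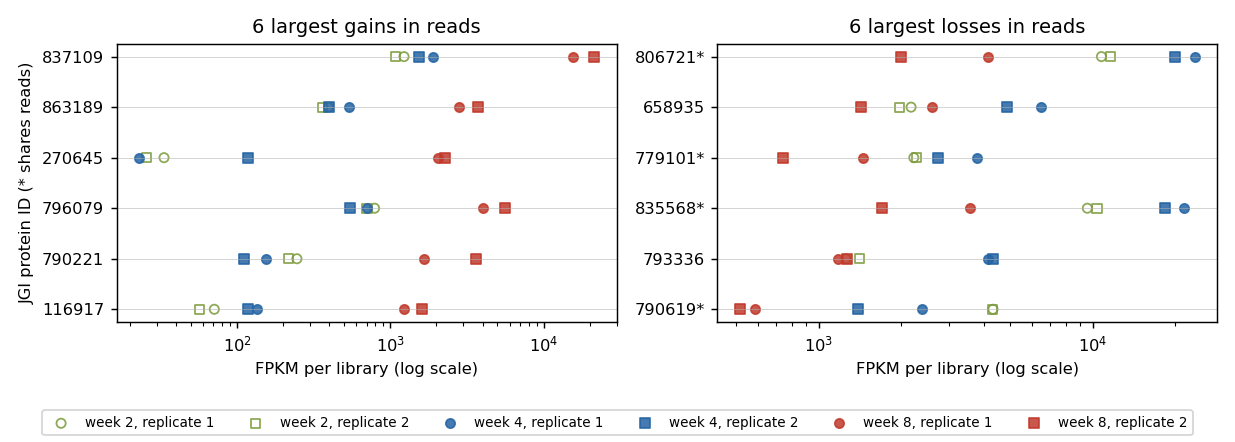
FPKM in each of the 6 libraries (log axis) for the 6 models that gained most reads in CPM (left) and the 6 that lost most (right) from week 4 to week 8, largest at the top. Model 837109 reached 15464 and 21360 FPKM at week 8, and model 806721 fell from 23595 and 20013 to 4137 and 2005 FPKM; an asterisk marks a model that shares reads.

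Reads moved between the called classes. Models called higher took up 9.55% and 8.66% of week 4 reads, against 22.4% and 26.04% of week 8 reads. Models called lower held 44.8% and 46.2% at week 4 and 23.9% and 20.5% at week 8. These classes were defined by the same libraries, so the shares describe the size of the shift and test nothing. At week 2, which did not enter the contrast, the fallen models had held 39.06% and 39.995% of the reads and the risen ones 13.7% and 13.1%. The fallen models thus carried a large part of the pool in both earlier weeks. Their median level was 55.6 FPKM at week 4 against 23.4 FPKM for all tested models, while that of the risen models was 19.9 FPKM.

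**Figure D4:**
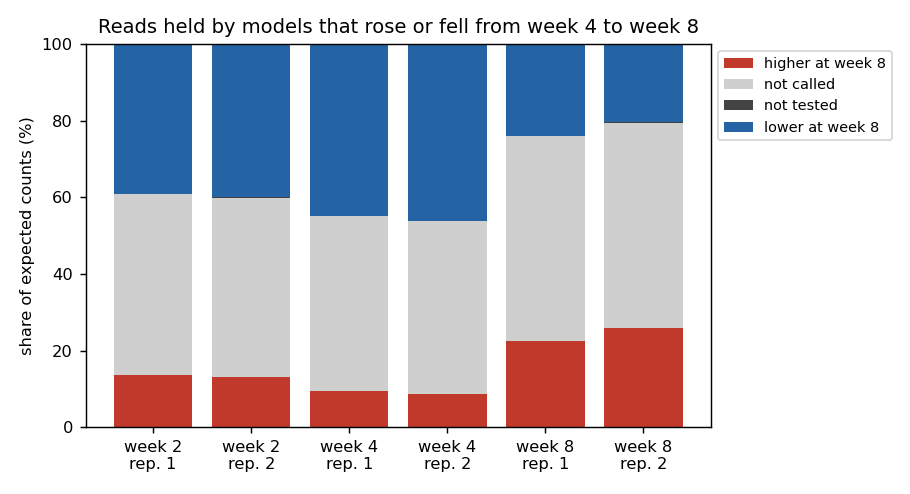
Share of expected counts (%) in each library held by models called higher at week 8 than at week 4 (red), called lower (blue), not called (light grey) and not tested (dark, about 0.1%). The red share goes from 8.66% and 9.55% at week 4 to 22.4% and 26.04% at week 8.

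Evenness was expressed as the number of equally abundant models that would give the same Shannon entropy. This effective number was 3613 ± 93.5 (week 4) and 4517 ± 42.97 (week 8), each with the SD over 2 libraries. The share of the 100 most abundant models was 19.9% ± 0.12 in week 4 libraries, against 16.3% ± 0.02 later. Neither measure overlapped between the weeks, with p = 0.33 for each by exact permutation (two-sided), the smallest that 2 libraries against 2 allow.

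The top ranks were partly replaced. Week 4 replicate 1 shared 74 of its 100 leading models with the leading 100 of week 4 replicate 2, but 56 and 52 with those of week 8 replicates 1 and 2. For the set picked in week 4 replicate 2 the figures were 74 in the other week 4 library and 51 and 46 at week 8. The leading models of week 4 replicate 1 took up 18.7% of reads in its partner library, against 11.9% and 10.2% in the week 8 libraries. By week 8, 7 and 10 of these ranked below number 1000, and 14 and 18 of the set picked in week 4 replicate 2. In the reverse direction, the set picked in week 8 replicate 1 had held 15.9% and 15.2% of the reads of the week 4 libraries. There, 91 and 89 of its members were already among the 500 most abundant, and 7 and 6 ranked below number 1000. The set picked in week 8 replicate 2 had held 14.2% and 13.6% of the week 4 reads. Of its members, 85 and 83 were among the 500 most abundant at week 4, and 11 and 11 ranked below number 1000. Of the week 4 replicate 1 set, 88 and 80 were among the 500 most abundant of the week 8 libraries, and of the week 4 replicate 2 set 79 and 71.

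Some abundant models were measured to stay near their week 4 level. The 4 highest by mean FPKM with an interval within 1.5-fold were models 774924, 812668, 728342 and 749653. Their mean week 4 levels ran from 963 to 1230 FPKM. Their log2 fold changes lay between -0.09 and 0.05, each with an SE of 0.19 or 0.20. Model 812668 (fgenesh1_pm.67_#_20) was at 1186 and 984 FPKM at week 4 and at 1261 and 1458 FPKM at week 8, with an interval from -0.39 to 0.46 on the log2 scale. Model 749653 was at 999.8 and 926 FPKM at week 4 and at 1132 and 1273 FPKM at week 8. Their mean FPKM were higher at week 8, although model 728342 overlapped between the weeks, at 1195 and 889 FPKM and then 1162 and 1481 FPKM. With total counts only the interval of none of the 4 lay within 1.5-fold. With size factors (RLE) or upper quartile scaling those of all 4 did. Model 774924 shares reads.

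Model length, which played no part in choosing the libraries, went with the direction of change among abundant models. Tested models were divided into quartiles of length and of mean FPKM over the 6 libraries. In the highest FPKM quartile, 226 of 578 models of the longest quartile (1948 bases or more) fell and 68 rose, which is 39.1% and 11.8%. Of 676 models of the shortest quartile (912 bases or less) at that level, 177 fell and 196 rose, which is 26.2% and 29.0%. Over all tested models 20% fell and 18% rose. The median log2 fold change was -0.33 in the long class and 0.11 in the short class.

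In the lowest FPKM quartile the shares were 15.5% of long models higher and 14.3% lower, against 8.32% and 12.7% of short ones. Scaling shifted both classes of abundant models alike. With total counts only, 148 of the long models fell and 133 rose, while 129 of the short ones fell and 305 rose. The distance of the long class from the median of all models was -0.34 on the log2 scale with each of the 4 scalings. A scaling shifts all models by nearly the same amount, so this agreement holds nearly by construction. Without week 8 replicate 2 it was -0.26, with 115 of the long models lower and 35 higher and 120 of the short ones lower and 67 higher, so the short class then held more falls than rises. Leaving out models that share reads gave 41.2% lower and 11.3% higher in the long class. Long and short models also differ in counting precision, and RNA integrity values were not used here. The part of either in this pattern was not tested.

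**Figure D5:**
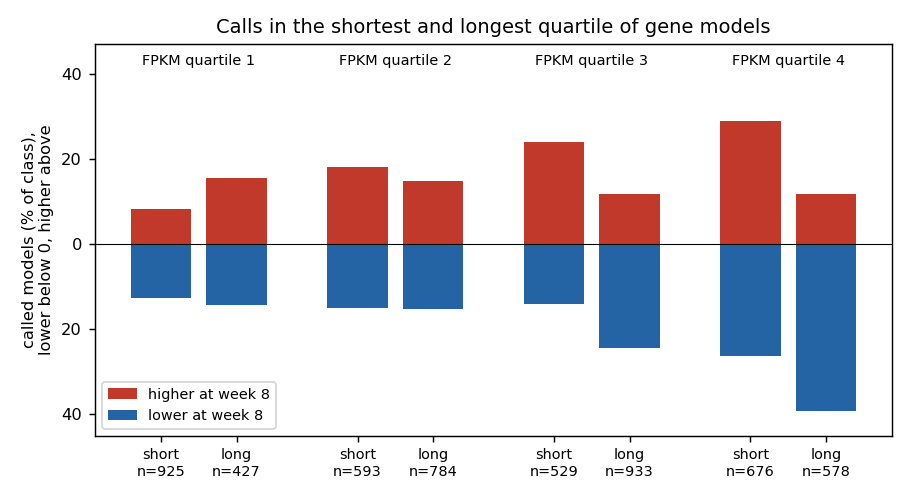
Share of models (%) called higher (red, above 0) or lower (blue, below 0) at week 8 than at week 4 in the shortest and longest length quartile, within each quartile of mean FPKM, with TMM scaling. In the highest FPKM quartile 39.1% of long models fell and 11.8% rose, against 26.2% and 29.0% of short ones; without week 8 replicate 2 the short class held 120 falls and 67 rises.

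The largest changes of 1 library pair were also measured in the pair left over. A library of each week picked its 100 steepest rises and its 100 steepest falls among the 8804 to 8874 models of at least 10 FPKM in either picking library, and the scaling alone used all libraries. Over the 4 ways of picking, 98 to 100 of the rises were higher at week 8 in the libraries left over, and 88 to 98 were so at least 2-fold. The median of the picked rises there ran from 2.57 to 3.06 on the log2 scale. Of the falls, 98 to 100 were lower and 92 to 100 were so at least 2-fold, with medians from -2.65 to -3.29. The median over all candidate models lay between 0.02 and 0.04. The 4 ways of picking reuse the same 4 libraries. A library left over may be a technical partner of the one that picked, so this is no independent replication.

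The libraries of a week did not sit at equal distance from the other week. The median size of the log2 difference was 0.42 between week 4 replicate 1 and week 8 replicate 1, and 0.55 between the replicate 2 libraries. Within week 8, models called higher were 0.17 higher in replicate 2 than in replicate 1 at the median, and models called lower were 0.18 lower there, against 0.00 over all tested models. Week 4 replicate 2 likewise stood 0.08 below replicate 1 at the median for risen models and 0.13 above it for fallen ones. Week 4 replicate 1 and week 8 replicate 1 were thus the nearest pair, and week 8 replicate 2 lay farthest along the shift. The called sets were chosen with all 4 libraries, so these gaps describe them and are not tests.

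Week 2 levels were set beside these changes. Of the 12 rises, the week 2 level was nearer on the log scale to week 4 in 10 models and nearer to week 8 in 2. Of the 12 falls, it was nearer to week 8 in 8 and to week 4 in 4. The same was counted for all models called at least 4-fold: 122 of 150 risen models had a week 2 level nearer to that of week 4, and 182 of 263 fallen ones a level nearer to that of week 8. Among all tested models the count was 5844 nearer to week 4 and 5045 nearer to week 8. These counts set levels side by side and are not a test of a return.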

How the data were processed

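Expected counts per gene model were estimated by the authors and are not normalized; FPKM are the authors' length- and depth-scaled levels, per the file headers. The tools listed, without their roles, were BWA, Bowtie and RSEM, per the submitters' processing notes. For their versions, settings, build and strand handling: not given in the sources used here. For testing, expected counts were made whole by rounding. The test was quasi-likelihood in edgeR 4.0.16 (robust, TMM, filterByExpr with a minimum count of 10) in R 4.3.3. All 6 libraries entered 1 fit with a mean per week, and p-values were adjusted by Benjamini-Hochberg over the 10889 models tested. The 1535 untested models held at most 24 counts in any of the 4 libraries. Standard errors and intervals derive from the F statistic. The fit was also run on simulated counts with known changes. It recovered 79 of 100 2-fold and 97 of 100 4-fold changes, with 4 false calls. Far fewer models were changed there than were called here, and rises and falls were equal in number. The simulation thus does not bear on the balance of rises and falls or on the scaling. Alternative fits used DESeq2 1.42.0, and limma 3.58.1 with log2(FPKM + 1) or log2(FPKM + 0.1), other scalings, no filter, fewer libraries and a replicate block.

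Named models are the 12 largest rises and falls and the 6 largest gains and losses in reads. Also named are the 5 highest by mean FPKM at week 8, the 4 steady models highest by mean FPKM and those switched on or off. Members, rules and groups were chosen with earlier results of these data known. Lists by product name could not be filled. Picks measured in left-out libraries, the gaps between libraries and the nearness of week 2 were added after the data were seen. Files list models with a count above 0, and values resting on fewer than 10 counts are imprecise.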

Additional observations from a re-analysis of the deposited data

How the results depend on the processing

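The differences in effective number (903) and in the share of the 100 most abundant models (-3.53 percentage points) kept their direction under the alternatives. Neither sign could be reversed by leaving out 1 library, since neither measure overlapped between the weeks. Shares of FPKM gave 882.5 and -4.03, and dropping each library's top 10 models gave 838.2 and -2.60. These alternatives could have reversed a sign and did not. Of 518 alternative values for the 37 named models called changed, 513 kept their call and all kept their direction; the 5 lost calls belong to model 795133. Most of the named models were picked as called, with large changes and no overlap between weeks, in the same libraries. Keeping their calls was thus likely beforehand and does not stand for all called models. The number of changed models was 4134, and 1831 at a bound of 2-fold (680 higher, 1151 lower). Leaving out 1 library gave 1743 to 4387 changed models, 741 to 2070 higher and 1002 to 2317 lower; such fits leave a week with a lone library, assumed to vary like the others. The balance changed with the scaling: 1822 higher and 2313 lower with RLE, 2343 and 1923 with upper quartile scaling, and 3642 and 1351 with total counts only. Limma on FPKM changed test, filter and scaling at once: 3514 and 1287 with log2(FPKM + 1), 3434 and 1252 with log2(FPKM + 0.1), and 3460 and 1270 without a filter on FPKM. Every model called both with the reported settings and in one of these alternatives had the same sign in both. The fits share libraries and only models called in both were compared, so this was likely beforehand. DESeq2 called 3291. With only the 4 libraries compared, 3241 models were called changed. In that fit 1038 models in place of 1762 lay within 1.5-fold, since fewer libraries widen the intervals. Replicate numbers were tried as a replicate block, which gave 3779 changed models. Deviations of same-numbered libraries had a correlation of -0.15 between weeks 4 and 8, so the numbers mark no known pairing; the block with week 8 numbers exchanged, added after the data were seen, gave 4426.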

Other observations

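The names of many gene predictions carry a scaffold number and a serial number, by JGI's naming habit. This reading of the names was not checked against a genome. Within the largest such track (fgenesh1_kg), 463 pairs of tested models with adjoining serial numbers on one scaffold had a Pearson's r of 0.19 between their log2 fold changes from week 4 to week 8, and 60.0% of the pairs moved in the same direction. At a serial distance of 2 the r was 0.13 over 536 pairs, at 5 it was 0.01 over 473, and at 10 it was -0.04 over 413. Without models that share reads the r of adjoining pairs was 0.17. It was 0.20 from the replicate 1 libraries and 0.18 from the replicate 2 libraries alone. These are weak correlations across pairs of models that share libraries and may overlap on the genome, where reads of neighbours cannot be told apart without strand.

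Of the 222 scaffolds with at least 10 tested models by this reading, the one with the highest median log2 fold change, chosen after its values were seen, was scaffold 114, with 10 of 19 models higher at week 8 and 1 lower (median 0.64). Over all tested models 18% were higher and 20% lower (median 0.01). The lowest median was that of scaffold 169, with 6 of 11 models lower and 2 higher (median -0.73).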
